A study of Mus musculus with 2 samples.

Results

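The interstitial cell genes described here are 8 genes of the pacemaker and PDGFRA-positive cells of the gut muscle wall, out of 22180 genes measured in mouse colon. They were chosen by name, with earlier results of these data known. Each was read from a probe set whose platform annotation names that gene alone. All 8 were measured, by 9 probe sets in all, Etv1 having 2. The series holds 2 arrays of colon RNA from healthy male ICR mice, an outbred stock, aged 7 weeks. The control array carried RNA of mice on a diet without psyllium, and the other RNA of mice given a diet with 10% psyllium, a gel-forming seed-husk fibre, for 5 days. Not stated in the labels are the number of mice behind each array, the stretch of colon taken, and whether the muscle coat was left on. With 1 array per diet no difference below has a replicate check, an error or a p-value. Each compares these arrays, and the spread between animals is unknown.

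Interstitial cells of Cajal generate the electrical slow waves that pace gut smooth muscle. They depend on the receptor KIT and its ligand, and carry pacemaker current through the calcium-activated chloride channel ANO1. A second interstitial cell type, marked by PDGFRA, hyperpolarises the muscle when purines released by enteric nerves reach its P2Y1 receptor, while nitric oxide from the same nerves acts through soluble guanylate cyclase and the cGMP-dependent kinase PRKG1 in interstitial and muscle cells. The comparison asks whether transcripts of these cells differed in the colon after a short period on the fibre.

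To show what lies in front of the genes, the 250 bases before the first annotated start are given for members at both ends of the range. These are Prkg1 and Ano1 (the most positive differences) and P2ry1 and Etv1 (the most negative). Prkg1 and Etv1 each also have a second annotated start, whose window is not printed. Which start gave the RNA read by a probe set was not tested. The sequences are RefSeq's on GRCm38.p6, written 5′ to 3′ along the gene's strand, at chr19:31765034-31765283 (minus strand) for Prkg1, chr7:144738574-144738823 (minus) for Ano1, chr3:61002535-61002784 (plus) for P2ry1 and chr12:38779832-38780081 (plus) for Etv1. Capitals mark GGGCGG, the core of the GC box read by Sp-family factors, or its reverse complement.
Prkg1: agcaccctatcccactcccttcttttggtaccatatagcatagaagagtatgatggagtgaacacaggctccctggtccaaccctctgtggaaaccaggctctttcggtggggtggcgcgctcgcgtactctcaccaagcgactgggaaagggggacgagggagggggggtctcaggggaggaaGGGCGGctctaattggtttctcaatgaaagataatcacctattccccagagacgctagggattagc
Ano1: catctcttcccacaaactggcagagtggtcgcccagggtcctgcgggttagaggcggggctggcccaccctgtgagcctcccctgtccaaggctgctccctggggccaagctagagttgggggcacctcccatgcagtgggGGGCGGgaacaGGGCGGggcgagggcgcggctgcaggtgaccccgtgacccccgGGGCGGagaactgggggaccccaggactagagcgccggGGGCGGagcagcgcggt
P2ry1: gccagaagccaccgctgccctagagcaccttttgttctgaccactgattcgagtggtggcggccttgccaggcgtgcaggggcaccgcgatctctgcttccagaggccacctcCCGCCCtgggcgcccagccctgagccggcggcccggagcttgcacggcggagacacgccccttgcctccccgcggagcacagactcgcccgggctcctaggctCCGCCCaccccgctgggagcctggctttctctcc
Etv1: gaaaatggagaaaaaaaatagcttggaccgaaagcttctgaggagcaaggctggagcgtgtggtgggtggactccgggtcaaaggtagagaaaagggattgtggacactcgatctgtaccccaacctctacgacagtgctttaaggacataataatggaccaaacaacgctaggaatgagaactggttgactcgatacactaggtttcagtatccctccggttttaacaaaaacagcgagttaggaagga

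The windows differ in base composition: G and C make up 72.0% of the Ano1 window, 70.8% of that of P2ry1, 55.2% of that of Prkg1 and 46.4% of that of Etv1, beside a median of 52.4% over 32851 such windows of 27025 genes. Kit (70.8%) and Kitl (69.2%) also have GC-rich windows. Searched on both strands, GGGCGG occurred before at least 1 annotated start of 6 of the 8 members (all but Pdgfra and Etv1) and in 32.7% of all windows. Here and below, member counts are per gene over all its starts, while the shares are per window, so they are not on the same base. TATAAA occurred for Kitl and for the second start of Etv1, and in 12.4% of all windows. The ETS-type motif CCGGAAG, of the kind that ETV1's family binds, occurred for Kitl alone of the members and in 6.91% of windows. The CArG box, bound by serum response factor in muscle genes, and the AP-1 motif TGANTCA were in no member's window, beside 1.47% and 6.75% of all windows. The CArG box was found for 1 of the 14 smooth muscle genes with a window. A match or its lack describes these letters only. GGGCGG was present before both higher members printed above, and also before P2ry1, which was lower.

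Most of the interstitial cell genes were moderately higher on the psyllium array, and P2ry1 and Etv1 were lower. The values are the authors' normalised intensities, and the difference is log2 psyllium minus log2 control. Of the 8 members 6 had positive and 2 negative differences, from -0.33 to 0.61, with a median of 0.35. Over the 11090 genes past an intensity filter the median was -0.04, the SD across genes 0.33, and 42.7% of differences were positive. The filter keeps genes whose higher value is at or above 69.5, and all 8 members passed it. At 1.5-fold 1 of the 8, Prkg1, was higher and none was lower, where 4.03% of the genes past the filter were higher and 2.42% lower by as much. No member reached 2-fold, where 1.06% were higher and 0.514% lower. As a guide to how far probe sets disagree, the differences given by the 2 probe sets of a gene, both past the filter, lay a median of 0.19 apart over 286 genes, and 90% lay within 0.49. Both probe sets read the same RNAs on the same arrays, so scatter between arrays or animals is not in this distance. Of the members 5 were above 0 and 2 below 0 by more than 0.19, while 2 (Ano1 and Prkg1) were beyond 0.49. Such distances were not rare: 38.9% of the genes past the filter were at least as far from 0 as Etv1 (-0.21), the nearest to 0 of these 7. For Ano1 (0.56) this share was 7.07%. In RNA of whole tissue, a change in the number of a cell type and a change in RNA per cell cannot be told apart.

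**Figure D1:**
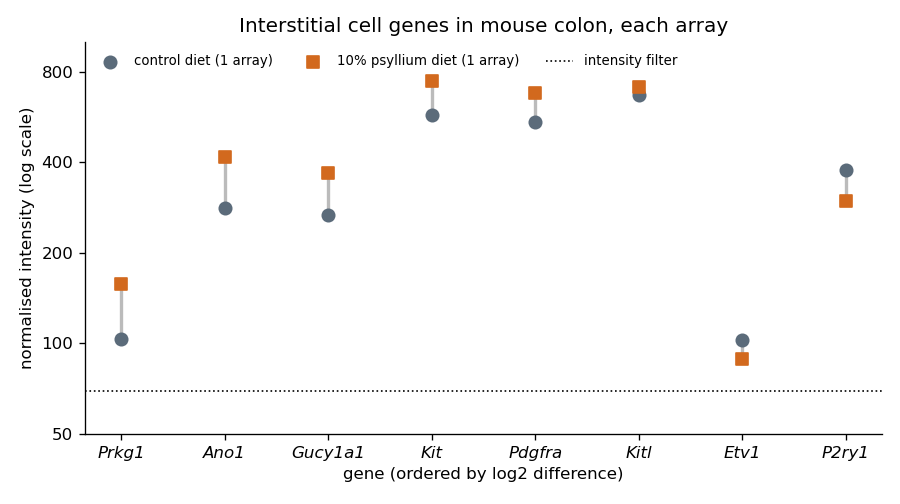
Normalised intensity (log scale) of the 8 interstitial cell genes on the control array (circles) and the psyllium array (squares), ordered by log2 difference, with 1 array per diet and so no error bars; the dotted line is the intensity filter of 69.5. The psyllium value is the higher for 6 genes, from Prkg1 (104 and 158) to Kitl (671 and 712), and the lower for Etv1 and P2ry1. Heights of different genes come from different probes and are not comparable.

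Kit, the receptor tyrosine kinase that defines interstitial cells of Cajal, had an intensity of 574 on the control and 746 on the psyllium array. It was thus 1.30-fold higher (a log2 difference of 0.38), and 8.30% of the genes past the filter had a larger positive difference. Kitl, the stem cell factor that binds KIT, had 671 and 712. Its difference of 0.09 is smaller than the 0.19 between probe sets, and 71.4% of the genes past the filter differed from 0 by at least as much. The receptor's difference exceeded that of its ligand by 0.29 on the log2 scale.

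Ano1, the chloride channel of the pacemaker current, had an intensity of 281 on the control and 416 on the psyllium array. At 1.48-fold higher (0.56) it had the second largest difference among the members, and 4.30% of the genes past the filter lay above it. The difference of Ano1 was larger than that of Kit by 0.19, which is no more than the distance between probe sets of the same gene.

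Etv1, an ETS-family transcription factor needed by interstitial cells of Cajal and stabilised by KIT signalling, went the other way from Kit and Ano1. Its brighter probe set read 103 on the control and 89.0 on the psyllium array, a difference of -0.21 (1.16-fold lower). Its other probe set read 60.6 and 50.1, a difference of -0.27, but lay below the filter on both arrays. Both probe sets were therefore lower on the psyllium array. Among genes past the filter 21.7% had a more negative difference than the brighter one, so a value of this size was common on these arrays. The difference of Etv1 lay 0.59 below that of Kit and 0.78 below that of Ano1.

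Pdgfra, the receptor that marks the second interstitial cell type and also many fibroblasts of the mucosa, had an intensity of 545 on the control and 678 on the psyllium array. It was 1.25-fold higher (0.32), close to Kit, with a gap of 0.06 between their differences. P2ry1, the purine receptor through which PDGFRA-positive cells respond to inhibitory nerves, read 376 on the control and 298 on the psyllium array. It was 1.26-fold lower (-0.33), the most negative difference of the 8, and 10.0% of the genes past the filter were more negative. Receptor and cell marker thus had opposite signs, 0.65 apart on the log2 scale. These are values of whole colon RNA, and which cells gave the RNA of P2ry1 or of Pdgfra was not tested.

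Prkg1, the cGMP-dependent kinase that relaxes smooth muscle, had the largest difference, with an intensity of 104 on the control and 158 on the psyllium array (1.52-fold higher, 0.61). It lay just past 1.5-fold, and an offset of 16 added before taking log2 brought its difference to 0.54, below that line. Ano1 lay just short of the line and passed it after quantile normalisation (0.62), centring (0.60) or removal of the intensity trend (0.63). Gucy1a1, the alpha 1 subunit of soluble guanylate cyclase, read 267 and 369 (1.38-fold higher, 0.46), and 6.07% of the genes past the filter lay above it. Its obligate partner Gucy1b1, which is no member, read 283 and 376 (0.41). The subunits of this nitric oxide receptor therefore differed from each other by 0.06.

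**Figure D2:**
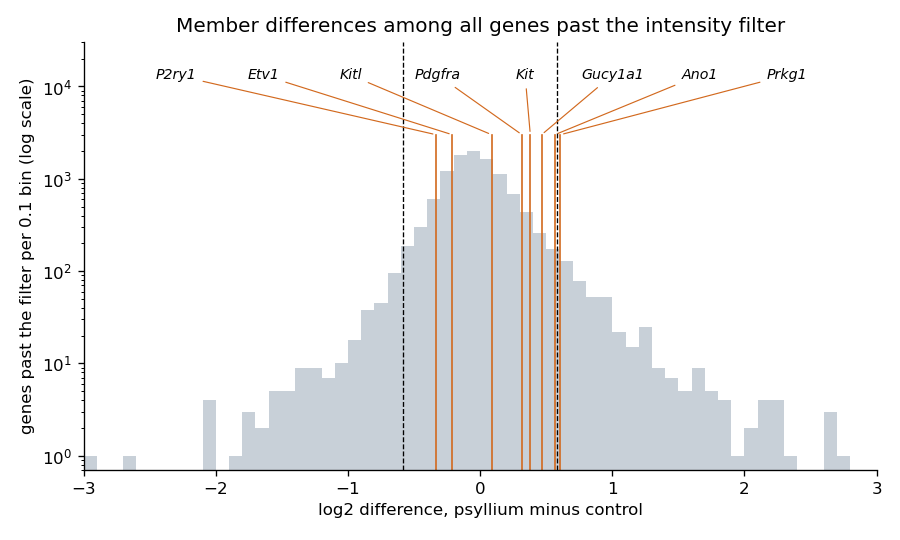
Histogram of the log2 difference, psyllium minus control, of the 11090 genes past the intensity filter, in bins of 0.1 with a log scale for the number of genes; orange lines mark the 8 interstitial cell genes and dashed lines 1.5-fold. P2ry1 and Etv1 lie left of 0, Kitl just right of it, and the other 5 lie between 0.32 and 0.61, where Prkg1 alone is past the dashed line.

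The genes that share a pathway or cell type with the members were described from 19 further lists, also chosen with earlier results known. Lists are given by their counts at 1.5-fold and their medians, to be read beside the median of -0.04 and the shares of 4.03% higher and 2.42% lower over the genes past the filter. Genes below the filter are included unless stated. Summed intensities, where given, are weighted to the brightest probe sets and are no measure of the amount of a cell type.

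Of 11 other genes of interstitial cells of Cajal, 9 had positive differences, and none was past 1.5-fold. Their median was 0.34, against 0.35 for the 8 members. Slc12a2, the sodium-potassium-chloride cotransporter that loads these cells with chloride, read 2857 and 3619 (0.34), but it is also abundant in crypt epithelium. Elovl6, a fatty acid elongase that epithelium also expresses, was the most negative of the list at 1148 and 805 (-0.51). Genes outside the naming rule, picked here for their role after their values were seen, were the T-type calcium channel Cacna1h (138 and 200, 0.53) and the thrombospondin Thbs4 (71.2 and 105, 0.56). Both lie near the top of the list. Pde3a (294 and 324, 0.14) and Prkcq (69.6 and 59.2, -0.23), also past the filter, lay lower. The pacemaker-linked channel Hcn4 read 8.70 and 10.0, far below the filter, so its difference carries little information.

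Signalling genes downstream of KIT were divided. Of 22 measured, 8 had positive and 14 negative differences, none past 1.5-fold, and their median was -0.09. The regulatory phosphoinositide 3-kinase subunit Pik3r1 read 1042 and 1123 (0.11), and the transcription factor Stat3 read 664 and 816 (0.30). These genes serve receptors in most cell types of the colon. The PDGF ligands, the second receptor Pdgfrb and the receptor-like Pdgfrl had a median of 0.04, and no gene of the 6 was past 1.5-fold. The ligand Pdgfa read 184 and 188 (0.03), and Pdgfrb, found on pericytes, read 184 and 161 (-0.19), whereas Pdgfra was at 0.32.

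Genes of purinergic relaxation went in both directions, as P2ry1 and Pdgfra did. Of 22 measured, 13 were positive and 8 negative, with a median of 0.12. The nucleotide-degrading ectoenzymes Entpd1 (114 and 186, 0.71) and Nt5e (130 and 200, 0.62) were at least 1.5-fold higher. The receptor P2ry2, which epithelium also carries, was 1.67-fold lower (219 and 131, -0.74). Kcnn3, the small-conductance potassium channel that P2Y1 receptors open in PDGFRA-positive cells, was named for that role after its value was seen. It read 122 and 143 (0.23), a sign opposite to that of P2ry1. Entpd1 and Nt5e act in turn in breaking nucleotides down to adenosine outside the cell, and both are also found on vessels and immune or stromal cells.

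Genes of the nitric oxide and cGMP pathway were mostly higher, as Prkg1 and Gucy1a1 were. Of 21 measured, 18 had positive differences and 3 were past 1.5-fold, all of them higher. The list median was 0.25. The small heat shock protein Hspb6, a kinase substrate in muscle, read 244 and 451 (0.89). Rgs2, a brake on G-protein signalling that PRKG1 activates, read 466 and 755 (0.70), and the phosphodiesterase Pde1a read 72.5 and 114 (0.65). The neuronal synthase Nos1, named after its value was seen, read 66.8 and 67.4 (0.01), just below the filter.

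Calcium handling genes, which set the store release that opens ANO1, had a median of 0.11, and the 2 of 19 past 1.5-fold were both higher. The plasma membrane calcium pump Atp2b4 read 669 and 1536 (2.30-fold higher), and the L-type channel Cacna1c, the main calcium entry route of smooth muscle, read 164 and 277 (0.76). Both are also expressed by smooth muscle.

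**Figure D3:**
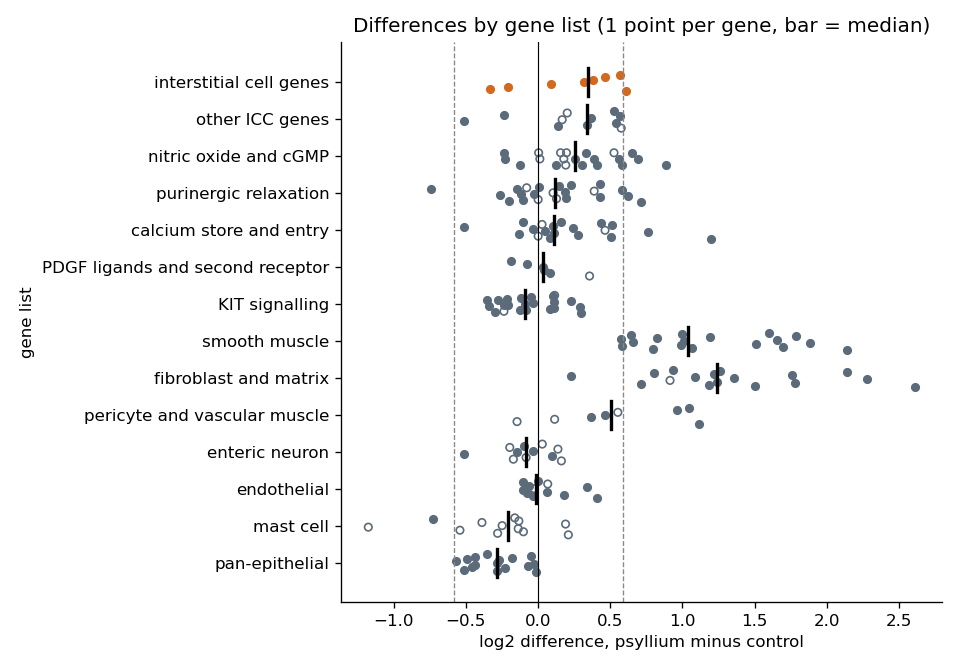
Log2 difference, psyllium minus control, of each measured gene in the member list and a selection of the further lists, with 1 point per gene. The PDGFRA-high and PDGFRA-low lists are among those not shown. A black bar marks the list median, and dashed lines mark 1.5-fold. Filled points are past the intensity filter and open points are below it, and vertical scatter within a list has no meaning. The medians of the interstitial cell genes (orange, 0.35) and of the other genes of interstitial cells of Cajal (0.34) lie right of the epithelial (-0.29), endothelial (-0.01) and neuronal (-0.08) medians and left of the smooth muscle (1.04) and fibroblast (1.24) medians, while the single genes of these lists overlap in part.

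Several members are expressed outside the interstitial cells, so markers of the neighbouring cell types were read on the same arrays. Of 18 smooth muscle genes, whose cells also express Prkg1 and Gucy1a1, 16 were higher by 1.5-fold or more, with a median of 1.04 and a range from 0.58 to 2.14, and their summed intensity was 15170 on the control and 35327 on the psyllium array. Among these were the enteric actin Actg2 (4.42-fold) and the filament genes synemin, Synm (3.69-fold), and desmin, Des (3.45-fold). All 8 members lay below the smooth muscle median, as reported and under each of 5 processing alternatives. Prkg1 lay above the lowest smooth muscle gene, as did Ano1 under 3 of the alternatives (quantile normalisation, removal of the intensity trend and the offset), and 16 of the 18 smooth muscle genes lay above Prkg1. The differences of Kit, Ano1 and Pdgfra were 0.66, 0.48 and 0.72 below the smooth muscle median. Of 17 genes of fibroblasts and their matrix 16 were higher by 1.5-fold or more, with a median of 1.24 and a summed intensity of 8417 and 21234. All but 1 of these 17 genes lay above Prkg1 and above Pdgfra. Fibronectin, Fn1 (6.10-fold), the microfibril gene Mfap5 (4.86-fold, from a dim 42.0) and the proteoglycan Lum (4.40-fold) led this list. The part of these cell types in the members' differences was not tested.

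PDGFRA is also carried by stromal cells of the mucosa and submucosa. Genes of the PDGFRA-high cells beneath the epithelium had a median of 0.23, with 1 of 11, the Wnt antagonist Frzb (48.3 and 100, 1.05), at least 1.5-fold higher. Genes of the PDGFRA-low cells near the crypt base had a median of 0.53 over 5 measured genes. Of these the BMP antagonist Grem1 (131 and 215, 0.71) and the Wnt amplifier Rspo3 (74.2 and 113, 0.60) were at least 1.5-fold higher. The value of Pdgfra, 0.32, lay between the medians of these lists, and which cells gave its RNA was not tested.

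KIT is also the receptor of mast cells and some innate lymphoid cells. Mast cell genes were lower for 10 of 12, with a median of -0.21 and a summed intensity of 336 on the control and 252 on the psyllium array. No mast cell gene had an intensity of 0, but 11 of the 12 lay below the filter, and the 1 past it, the protease Mcpt1, read 94.6 and 57.2 (-0.73). Genes of KIT-positive innate lymphoid cells had a median of -0.41 over 7, of which 3 were positive and 4 negative and 5 lay below the filter, and an offset of 16 brought this median to -0.078. Past the filter were the lymphotoxin Ltb at 100 and 65.3 (-0.62) and the interleukin-1 receptor Il1r1, named after its value was seen, at 332 and 335 (0.01). Kit was higher by 0.38, and most values of both lists are too dim to set against it.

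Pericyte and vascular muscle genes, whose cells express Gucy1a1, had a median of 0.51, with 3 of 8 at least 1.5-fold higher: Mcam (1.12), the proteoglycan Cspg4 (1.05) and the potassium channel Kcnj8 (0.96). Their summed intensity was 3773 and 5200, most of it from Rgs5 (2910 and 3746, 0.36), the brightest of the list. Endothelial genes, a source of Kitl, had a median of -0.01 (0.02 after centring), and no gene of the 12 was past 1.5-fold. Differences were positive for 5 and negative for 6. The brightest, Cdh5 (0.18) and Pecam1 (0.34), were positive, while Kdr (-0.10) and Tek (-0.11) were among the negative ones. Pan-epithelial genes were lower for 16 of 16, none past 1.5-fold, with a median of -0.29 and a summed intensity of 32274 and 27127. The keratin Krt8 differed by -0.03 and the lectin Lgals4 by -0.18. The epithelium is a further source of Kitl. Enteric neuron genes, the nerve partners of these cells, had a median of -0.08, and no gene of the 11 was past 1.5-fold. Only 5 of the 11 were past the filter, with a median of -0.10. The synaptic gene Snap25 read 272 and 190 (-0.52) and Stmn2 204 and 190 (-0.10). Enteric glia genes had a median of 0.00 over 5, of which only Cdh19 (69.8 and 72.2, 0.05) was past the filter.

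The sign of each member's difference was the same under the 5 processing alternatives, but not all of these could change a sign. An offset keeps the order of the control and psyllium values. The mean over probe sets alters only Etv1, the member with 2. Centring shifts all members alike by an amount smaller than either negative difference. Over these settings Kit ranged from 0.37 to 0.45, Ano1 from 0.54 to 0.63 and Prkg1 from 0.54 to 0.65. P2ry1 ranged from -0.33 to -0.27, and Etv1, the smaller of the negative differences, from -0.24 to -0.17. These settings reuse the same arrays and say nothing of the spread between animals.

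**Figure D4:**
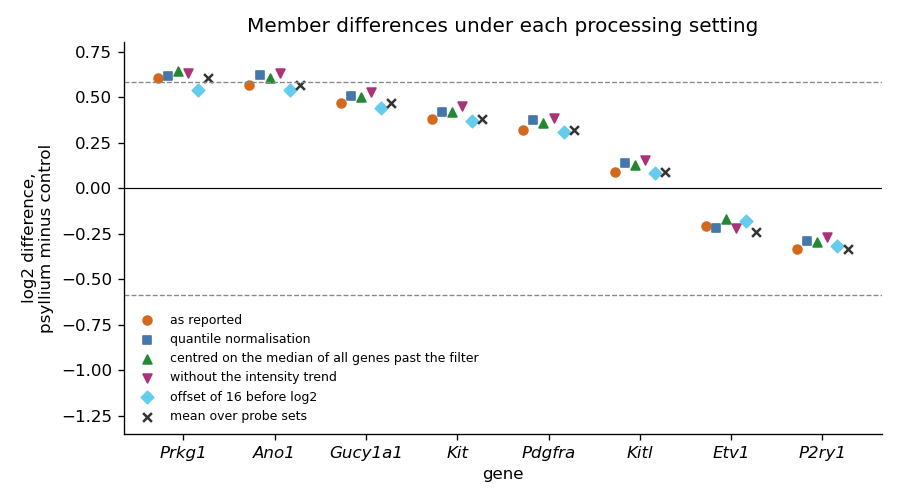
Log2 difference, psyllium minus control, of the 8 interstitial cell genes as reported and under 5 processing alternatives (marker shapes), with dashed lines at 1.5-fold. No gene changes sign, and only Prkg1 and Ano1 cross the 1.5-fold line, Ano1 passing it at up to 0.63 and Prkg1 lying below it at 0.54.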

How the data were processed

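The deposited table holds 1 normalised intensity per probe set and array, on a linear scale from 1.76 to 13841 (medians 48.9 and 49.8). The submitters' processing notes name RMA and Affymetrix Expression Console and give no versions. Build and annotation are not given in the sources used here. If arrays were equalised, as RMA usually does, differences are relative to the bulk of transcripts. The number of arrays limits the precision.

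Intensities were converted to log2 with no pseudocount (Python 3.11.15, pandas 2.3.3). Of 41345 probe sets, 23521 name 1 gene in GEO's platform annotation, and symbols were updated by gene number in RefSeq's GRCm38.p6 table, which held 23328 of them. Probe sets naming several genes (1814) or none (16010) were left out. Of several probe sets for a gene, the one with the higher mean log2 was used. The filter is the median over genes of the higher value. Of 254 entries in the 19 further lists 240 were measured.

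Named genes are all members and, from each list, up to 4 past the filter and past 1.5-fold by size, or else the 2 with the highest level. Members and lists were chosen with earlier results of these data known. With 2 arrays no gene was ranked by likeness to a member. The counting code was run on simulated data with planted differences well past 1.5-fold and noise smaller than the spread across genes here. That run checks the code only and says nothing of differences as small as the members'. Motifs were searched in the 250 bases before each RefSeq start.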

Additional observations from a re-analysis of the deposited data

How the results depend on the processing

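Of 174 values recomputed under the alternatives, 166 stayed within 0.19 of the main value (the median distance between probe sets of a gene) or, for counts, within 1.5 times. Part of this was fixed in advance. Centring shifts every difference alike by less than 0.19, and the mean over probe sets changes only genes with several. The filter removes no member. The sign changed for 2 list medians near 0, the gap junction median (0.11, and -0.045 on genes past the filter) and the endothelial median (-0.01, and 0.02 after centring), and for no member. The count of members at least 1.5-fold higher, 1 in the report, was 2 after quantile normalisation, 2 after centring on the median of all genes past the filter, 2 without the intensity trend, 0 with an offset of 16 and 0 at a threshold of 2-fold. The innate lymphoid median moved to -0.078 with the offset, which shrinks dim values. On genes past the filter alone, the mast cell median was -0.73 (1 gene) and the pericyte median 0.96 (5 genes). No paired analysis was possible because each diet has 1 array, and for the same reason no array could be left out. Dim genes limit the mast cell, innate lymphoid and glial lists most.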

Other observations

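All 9 measured relatives of Ano1 in the anoctamin family had smaller differences than its 0.56. Of these, 7 had negative differences, none was past 1.5-fold, and the median was -0.05. Only 5 of the 9 were past the filter, with a median of -0.006, so part of the negative differences comes from dim genes. Ano10 read 607 and 605 (-0.01) and the epithelial Ano9 read 491 and 400 (-0.30). The highest, named after its value was seen, was the lipid scramblase Ano6, at 195 and 273 (0.49).

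Gap junction genes, which couple cells electrically, had no settled direction. Their median was 0.11 over 8 and -0.045 over the 4 past the filter, and none was past 1.5-fold. Gja1, the connexin 43 gene, read 251 and 365 (0.54), whereas the epithelial Gjb2 read 131 and 130 (-0.01). Gja1 was at a difference like that of Ano1, and it is also expressed by smooth muscle, whose median was 1.04.

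Pdgfra and Kit are adjacent protein-coding genes on chromosome 5 in RefSeq's GRCm38.p6 order, with Kdr, the VEGF receptor of endothelium and the next gene after Kit, encoding a related receptor kinase. Pdgfra (0.32) and Kit (0.38) were higher on the psyllium array, while Kdr read 165 and 154 (-0.10). The other nearby genes past the filter went in both directions: Tmem165 (0.37), Srd5a3 (0.13), Chic2 (-0.01) and Lnx1 (-0.53).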
